A study of Homo sapiens with 8 samples.

Results

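The miR-34, miR-124, miR-9 and miR-129 families were followed in the methyl-CpG-binding domain sequencing (MBD-seq) data of 8 neuroblastoma (NB) cell lines, through the 10 miRNA genes *MIR34A*, *MIR34B*, *MIR34C*, *MIR124-1*, *MIR124-2*, *MIR124-3*, *MIR9-1*, *MIR9-2*, *MIR9-3* and *MIR129-2*. These genes were listed by name and not by a rule on their values, but with earlier results of these data known. Of the 10, 9 could be placed on the genome, among 3059 miRNA genes examined in the same way. Each gene was read through a window of -1500 to +1000 bp around the start of its precursor, the hairpin RNA from which the mature miRNA is cut, and an overlap of 1 bp was enough for a peak to count.

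In MBD-seq, sheared genomic DNA is captured with the methyl-binding domain of MBD2, so that methylated, CpG-containing fragments pile up into peaks. The lines with amplified *MYCN* (MNA) are LAN-2, N206, IMR-32 and CHP-902R. The lines without amplification, named single copy here, are SK-N-AS, SJNB-1, SH-SY5Y and CLB-GA. Neither group was treated as far as the labels tell. All are established cultures of tumor cells with 1 library each, so that the 4 lines of a *MYCN* group are its replicates and a p-value measures the spread between them. The deposited lists held 70816 to 112412 peaks per line, and all 4 lists of MNA lines were longer than all 4 of the single copy lines. Without read counts in these lists, the depth behind a missing peak is unknown, and no expression values were at hand to check the identity of the lines.

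A mature miRNA binds messenger RNAs mainly through its seed, bases 2 to 8 from the 5′ end, and lowers their translation and stability. The miR-34 family is induced by p53 and represses cell cycle and survival genes, and *MYCN* and *BCL2* are among its known targets. *MIR34A* lies on the short arm of chromosome 1, a region often deleted in NB. miR-124 and miR-9 are abundant in the nervous system and accompany neuronal differentiation, and miR-129 is also enriched in brain. Genes of all 4 families have been described as silenced by methylation of CpG-rich promoters in tumors.

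The mature sequences are shown because they explain why several genes are read together, with the seed in capitals. They were taken from RefSeq (GRCh38.p14), which matched 7 of the 10 genes. The 3 genes *MIR9-1*, *MIR9-2* and *MIR9-3* give identical mature miRNAs, so each is a possible source of the same product. Which of them was transcribed in these lines was not analysed here.
miR-34a-5p: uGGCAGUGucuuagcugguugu
miR-34b-5p: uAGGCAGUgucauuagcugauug
miR-34a-3p: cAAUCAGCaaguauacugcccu
miR-34b-3p: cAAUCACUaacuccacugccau
miR-34c-3p: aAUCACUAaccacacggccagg
miR-9-5p: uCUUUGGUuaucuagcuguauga
miR-9-3p: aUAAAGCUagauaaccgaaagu
miR-129-5p: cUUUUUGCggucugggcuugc
miR-129-2-3p: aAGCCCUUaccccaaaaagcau
miR-34c-5p and the mature miRNAs of miR-124 were not analysed here. Among those shown, the seeds of miR-34a-5p and miR-34b-5p had a run of 6 of the 7 bases in common, GGCAGU, shifted by a single position, and the seeds of miR-34b-3p and miR-34c-3p also had a run of 6 bases in common.

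Positions are given on GRCh37, to which the authors mapped their reads. *MIR34A* lies at chr1:9211727-9211836 on the minus strand, inside the long non-coding RNA *MIR34AHG*. *MIR34B* (chr11:111383663-111383746) and *MIR34C* (chr11:111384164-111384240) lie on the plus strand inside *MIR34BHG*, where the protein-coding gene *BTG4* overlaps both on the other strand. *MIR124-2* (chr8:65291706-65291814, plus strand) lies inside *MIR124-2HG*, and *MIR124-3* (chr20:61809852-61809938, plus strand) has no annotated host on its strand. *MIR9-3* (chr15:89911248-89911337, plus strand) lies inside *MIR9-3HG*, and *MIR129-2* (chr11:43602944-43603033, plus strand) inside the unnamed long non-coding RNAs ENSG00000283217 and ENSG00000283341. *MIR9-2* was placed by an exact match of its RefSeq hairpin at chr5:87962671-87962757 on the minus strand, inside *LINC00461*. *MIR9-1* is annotated at chr1:156390123-156390230 on the plus strand, whereas its RefSeq hairpin matched the minus strand at chr1:156390133-156390221, the strand of its host *MIR9-1HG*. Distances at *MIR9-1* are given along the annotated plus strand, and the window on the other strand held the same peaks in the same lines. *MIR124-1* was not placed and was followed only through its host gene *MIR124-1HG*.

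Peaks in the precursor windows of these genes were about as frequent as over all miRNA genes, and they were scattered over lines. A peak was present in 9 of 72 combinations of a gene and a line (12.5%), made up of 8 distinct peaks because *MIR34B* and *MIR34C* share one. The share over all miRNA genes was 12.6%, and over the 170 miRNA genes with a CpG-rich window it was 19.5%. A window was called CpG-rich at a GC content of at least 50% and an observed to expected CpG ratio of at least 0.6, and 6 of the 9 placed genes had such a window (*MIR34B*, *MIR34C*, *MIR124-2*, *MIR124-3*, *MIR9-3* and *MIR129-2*).

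Of the 9 placed genes, 7 had a peak in at least 1 line, beside 42.7% of all miRNA genes and 56.5% of those with a CpG-rich window. A peak in at least 2 lines was found at *MIR124-2* and *MIR9-1*, 2 of the 9, near the share of 25.6% over all miRNA genes. In the CpG-rich group this share was 35.3%. No placed gene had a peak in 3 or more lines, beside 15.5% of all miRNA genes and 24.7% of the CpG-rich group. With 9 genes, a difference from these shares was not tested. *MIR9-2* and *MIR9-3* had no peak in any of the 8 lines. In each of the 9 windows at least 99.7% of the stretches of 45 bp occurred only once in the genome, and whether the windows were captured was not tested.

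**Figure D1:**
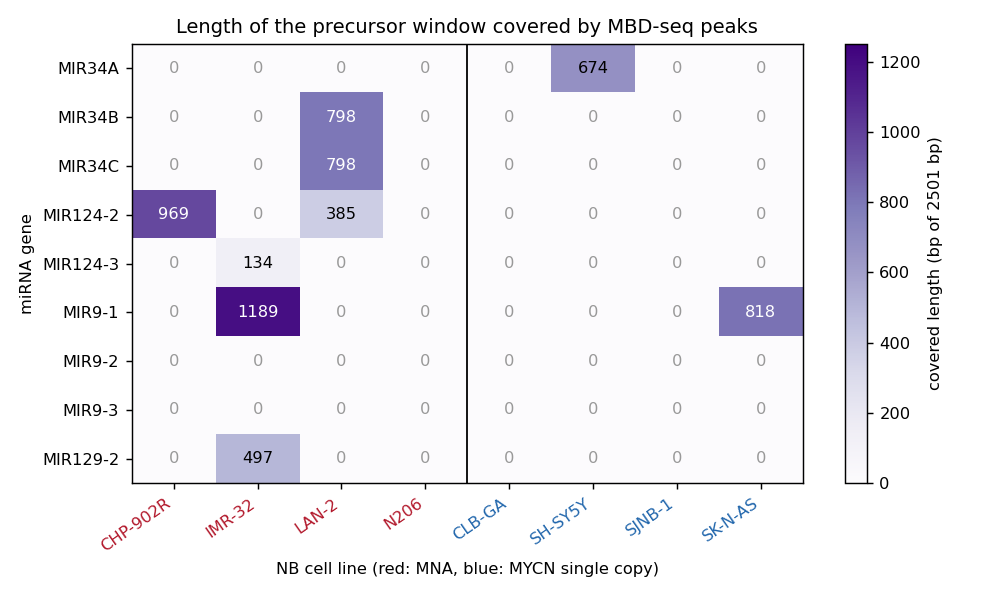
Length of the precursor window covered by MBD-seq peaks, in bp of 2501 bp, for each placed miRNA gene (rows) and each NB cell line (columns, MNA lines in red and *MYCN* single copy lines in blue). The longest cover was 1189 bp at *MIR9-1* in IMR-32, and most combinations were at 0 bp.

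The lines differed in how many of the 9 genes carried a peak. IMR-32 had 3 (*MIR124-3*, *MIR9-1* and *MIR129-2*), and LAN-2 also had 3 (*MIR34B*, *MIR34C* and *MIR124-2*). CHP-902R had *MIR124-2*, SH-SY5Y had *MIR34A* and SK-N-AS had *MIR9-1*. N206, CLB-GA and SJNB-1 had none. Over all miRNA genes the share with a peak was 13.3% in IMR-32, 14.7% in LAN-2, 13.7% in CHP-902R, 13.2% in SH-SY5Y, 12.2% in SK-N-AS, 12% in N206, 11% in CLB-GA and 10.5% in SJNB-1. In the precursor windows no line had peaks at *MIR34A* and *MIR34B* or *MIR34C* together, and none had peaks at both *MIR124-2* and *MIR124-3*. None had a precursor peak at more than 1 of the 3 genes of miR-9. With so few lines per gene a lack of overlap says little, and no background share was taken for it. At start sites of the host transcripts, described below, IMR-32 had a peak at all 3 genes of miR-9. LAN-2 had one there at *MIR9-1* and *MIR9-2*, and SK-N-AS at *MIR9-1* and *MIR9-3*.

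In the miR-34 family, peaks were found in 1 MNA line and 1 single copy line. *MIR34A*, the copy expressed most widely in tissues, had a covered length of 674 bp in SH-SY5Y and 0 bp in the other 7 lines. This peak ran from -131 to +542 bp of the precursor start and covered the precursor. Its score, higher for peaks of lower p-value, was 57.0, above 17.0% of the peaks of SH-SY5Y and close to the lowest score in the lists of 50.0, which stands for a p-value of 1e-05. In the remaining lines the nearest peak lay from 4676 bp (N206) to 91506 bp (LAN-2) away.

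*MIR34B* and *MIR34C* are processed from 1 transcript, and both windows held the same LAN-2 peak of 798 bp, with 0 bp in the other 7 lines. The peak ran from -505 to +292 bp of the *MIR34B* start, covered the *MIR34B* precursor and ended 209 bp before the start of *MIR34C*. Its score of 104 was above 80.9% of the peaks of LAN-2. It was among the CpG-densest of the peaks described here, with 80 CpG in its 798 bp, and it lay over the densest 250 bp within 10 kb of *MIR34B* (36 CpG). In the other 7 lines no peak was found within 10 kb of *MIR34B*, and the nearest was 16396 bp (SJNB-1) to 64212 bp (IMR-32) away.

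Both peaks are shown by the 300 bp of the plus strand with the most CpG, in which CpG is in capitals, to set the sparse CpG of the *MIR34A* peak beside the dense CpG of the *MIR34B* peak. The *MIR34A* stretch holds 13 CpG and the *MIR34B* stretch 39.
*MIR34A*, SH-SY5Y peak, chr1:9211552-9211851: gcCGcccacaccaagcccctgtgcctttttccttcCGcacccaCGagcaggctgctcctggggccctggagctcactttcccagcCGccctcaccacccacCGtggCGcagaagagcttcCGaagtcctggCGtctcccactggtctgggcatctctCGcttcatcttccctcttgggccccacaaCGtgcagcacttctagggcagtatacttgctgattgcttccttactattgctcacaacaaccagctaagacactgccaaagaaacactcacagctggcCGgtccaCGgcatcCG
*MIR34B*, LAN-2 peak, chr11:111383370-111383669: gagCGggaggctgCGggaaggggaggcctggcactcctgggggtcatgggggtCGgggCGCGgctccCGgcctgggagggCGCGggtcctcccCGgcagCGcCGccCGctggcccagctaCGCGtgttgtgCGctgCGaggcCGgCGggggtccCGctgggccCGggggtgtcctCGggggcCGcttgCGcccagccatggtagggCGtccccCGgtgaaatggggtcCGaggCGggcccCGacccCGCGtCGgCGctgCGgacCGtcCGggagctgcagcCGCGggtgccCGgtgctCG

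At the 2 placed genes of the miR-124 family, a peak was found in 3 of 16 combinations of a gene and a line. All 3 were in MNA lines, beside shares over all miRNA genes of 13.4% in MNA lines and 11.7% in single copy lines, and the difference was not tested over the family. *MIR124-2* was covered over 969 bp in CHP-902R and 385 bp in LAN-2 and over 0 bp in IMR-32, N206 and the 4 single copy lines. The CHP-902R peak spanned the precursor, from -521 to +447 bp of the start, and its score of 145 was above 97.0% of the peaks of that line. The LAN-2 peak ended 90 bp before the precursor and had a score of 55.6, above 12.3% of the peaks of LAN-2, and it was lost when each list was reduced to its 70816 highest-scoring peaks. With 2 MNA lines against none the exact Fisher test gave p = 0.429, and the groups overlapped at 0 bp.

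*MIR124-3* had the most CpG of the 9 windows, 325 or 13.0 per 100 bp beside 0.985 over the genome, and lay almost free of peaks. The one peak, in IMR-32, reached only 134 bp into the window, ended 1367 bp upstream of the precursor start and left the precursor uncovered, and the other 7 lines were at 0 bp. SH-SY5Y, a single copy line, had a peak 1384 bp downstream of the start, past the edge of the window. The densest 250 bp of the window (40 CpG) had no peak in any line. In contrast, a region 6365 to 7932 bp downstream of the start had a peak in all 8 lines, with scores from 160 to 272 that were above 96.1% to 99.8% of the peaks of their lines. This region had 3.38 CpG per 100 bp, about the level of the *MIR34A* peak and below that of the *MIR124-3* window, and 92.1% of its 45 bp stretches occurred once in the genome, fewer than in the windows.

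The region is shown by its CpG-richest 300 bp, on the plus strand with CpG in capitals, because it is made of a short unit that recurs. Shifted by 38 bp, the part common to the 8 lines had the same base at 67.3% of its positions, beside a highest value of 31.7% to 36.4% at any shift from 10 to 100 bp for the other stretches shown here. The stretch holds 15 CpG.
*MIR124-3*, peak of all 8 lines, chr20:61816785-61817084: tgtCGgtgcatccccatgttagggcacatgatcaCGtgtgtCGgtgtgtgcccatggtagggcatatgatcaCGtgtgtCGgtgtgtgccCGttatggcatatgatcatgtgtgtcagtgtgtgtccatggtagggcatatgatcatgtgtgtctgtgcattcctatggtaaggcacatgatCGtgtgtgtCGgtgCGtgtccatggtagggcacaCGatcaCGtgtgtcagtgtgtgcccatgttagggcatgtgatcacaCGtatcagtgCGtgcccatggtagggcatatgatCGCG

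*MIR124-1* could be described only by the start sites of its host *MIR124-1HG* (chr8:9757381-9776743, minus strand). A peak was found within the same window of at least 1 of its 18 annotated start sites in 3 MNA lines (N206, LAN-2 and CHP-902R) and 2 single copy lines (SJNB-1 and CLB-GA). Many start sites give more chances of a peak. The sites from chr8:9758710 to chr8:9762876 had none in any line, and CLB-GA had one only at chr8:9776665 and chr8:9776743. Which sites lie upstream of *MIR124-1* is unknown, since it was not placed. By comparison, the start sites of *MIR124-2HG* had a peak in CHP-902R and LAN-2 only.

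In the miR-9 family, the 3 genes differed, although their mature miRNAs are the same. *MIR9-1* was covered over 1189 bp in IMR-32 and 818 bp in SK-N-AS and over 0 bp in the other 6 lines. Both peaks covered the precursor, and the SK-N-AS peak lay inside the IMR-32 peak. Their scores were 79.3 in IMR-32, above 63.4% of the peaks of that line, and 63.5 in SK-N-AS, above 42.4%. In the remaining lines the nearest peak was 1961 bp (SJNB-1) to 5471 bp (N206) from the start.

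The interval common to both *MIR9-1* peaks is shown because it was the only precursor window with a peak in a line of each *MYCN* group. Its CpG-richest 300 bp, on the plus strand with CpG in capitals, begin 114 bp from the annotated start and hold 28 CpG.
*MIR9-1*, peak of IMR-32 and SK-N-AS, chr1:156390237-156390536: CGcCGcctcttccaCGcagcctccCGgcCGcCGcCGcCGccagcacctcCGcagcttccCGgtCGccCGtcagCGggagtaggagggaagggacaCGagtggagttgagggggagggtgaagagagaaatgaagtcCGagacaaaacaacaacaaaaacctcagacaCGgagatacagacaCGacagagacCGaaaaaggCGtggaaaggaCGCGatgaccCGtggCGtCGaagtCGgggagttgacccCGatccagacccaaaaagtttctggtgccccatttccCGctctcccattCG

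*MIR9-3* had a CpG-rich window (152 CpG) that was free of peaks in all 8 lines, while its surroundings were not. A region 2044 to 4267 bp downstream of the start had a peak in 6 lines, CHP-902R, LAN-2, N206, CLB-GA, SH-SY5Y and SK-N-AS, and an upstream region from -7975 to -7143 bp had a peak in CHP-902R, IMR-32, CLB-GA and SK-N-AS. Another, from 9217 bp downstream on, had a peak in IMR-32, LAN-2, N206 and CLB-GA. SJNB-1 had no peak within 10 kb, with the nearest at 17517 bp. In the 7 other lines the nearest peak stood 2044 to 2880 bp from the start. The downstream region held the densest 250 bp within 10 kb of *MIR9-3* (38 CpG), which had a peak in 5 lines, and this part is shown on the plus strand with CpG in capitals.
*MIR9-3*, peak of 5 lines, chr15:89914691-89914990: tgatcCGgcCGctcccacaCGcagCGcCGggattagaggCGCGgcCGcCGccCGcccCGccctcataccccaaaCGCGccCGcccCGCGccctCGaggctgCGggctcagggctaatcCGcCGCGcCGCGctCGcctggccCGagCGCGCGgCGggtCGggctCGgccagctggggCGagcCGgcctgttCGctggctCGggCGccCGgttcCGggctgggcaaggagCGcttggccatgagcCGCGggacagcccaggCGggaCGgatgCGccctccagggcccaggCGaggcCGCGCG

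*MIR9-2* also had no peak in its window, which held 58 CpG. A region 6131 to 7609 bp downstream of the start (chr5:87955148-87956626) had a peak in IMR-32 and in every single copy line but SK-N-AS, with scores from 72.0 to 181. The IMR-32 peak (6131 to 6547 bp) met the end of the SH-SY5Y peak (6547 to 7609 bp). It did not reach the peaks of CLB-GA (6803 to 7223 bp) and SJNB-1 (6774 to 7300 bp). In the other 4 lines the nearest peak was 17366 bp (LAN-2), 90669 bp (N206), 134504 bp (SK-N-AS) and 251280 bp (CHP-902R) away.

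*MIR129-2*, one of the 2 genes that give miR-129-5p, had a peak in IMR-32 alone, with 497 bp covered and 0 bp in the other 7 lines. This peak ran from -274 to +222 bp of the start and covered the precursor, and its 47 CpG gave 9.46 per 100 bp. Its score of 64.5 was above 36.4% of the peaks of IMR-32. Just beyond the window the lines with a peak were others. A region 1502 to 2244 bp downstream had a peak in N206, CLB-GA, SH-SY5Y and SK-N-AS, with scores from 60.5 to 161, and a further CLB-GA peak began 1017 bp downstream, 17 bp past the edge of the window. In CHP-902R, LAN-2 and SJNB-1 the nearest peak was 21552 to 33741 bp away.

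The precursor peak and the part of the downstream region common to its 4 lines are shown on the plus strand with CpG in capitals, since no line had a peak at both. The first holds 32 CpG in 300 bp and the second 18 CpG in 268 bp.
*MIR129-2*, IMR-32 peak, chr11:43602789-43603088: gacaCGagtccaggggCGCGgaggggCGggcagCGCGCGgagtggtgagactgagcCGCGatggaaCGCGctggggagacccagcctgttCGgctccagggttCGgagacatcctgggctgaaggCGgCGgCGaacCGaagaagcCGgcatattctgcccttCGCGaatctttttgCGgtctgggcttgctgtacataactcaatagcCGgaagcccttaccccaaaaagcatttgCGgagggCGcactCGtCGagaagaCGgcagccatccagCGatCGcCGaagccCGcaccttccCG
*MIR129-2*, downstream peak of 4 lines, chr11:43604791-43605058: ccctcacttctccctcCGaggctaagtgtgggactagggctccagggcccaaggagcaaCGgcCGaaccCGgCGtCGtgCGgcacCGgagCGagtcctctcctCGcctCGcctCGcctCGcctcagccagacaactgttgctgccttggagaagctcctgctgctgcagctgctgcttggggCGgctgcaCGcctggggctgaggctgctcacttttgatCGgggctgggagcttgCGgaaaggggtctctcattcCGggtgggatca

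The comparison of MNA with single copy lines asked whether methylation at these genes went with amplification of *MYCN*, itself a target of miR-34. Peaks were found in 7 of 36 combinations of a gene and a line in MNA lines (19.4%) and in 2 of 36 in single copy lines (5.56%), beside 13.4% and 11.7% over all miRNA genes. Per line this was 1.75 ± 1.5 genes in MNA lines (SD, n = 4) and 0.5 ± 0.577 in single copy lines (SD, n = 4), so that the groups overlapped. The longer peak lists of the MNA lines moved with this difference, and their part in it was not tested beyond the lists of equal length, with which 6 combinations in MNA lines and 2 in single copy lines had a peak.

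No single gene separated the groups. *MIR124-2* had an adjusted p of 1 in the exact Fisher test and in the exact permutation test of the covered length (unadjusted p = 0.429 in both), and the other 6 genes with a peak had an unadjusted p of 1 in both tests. Over all 1306 miRNA genes with a peak in at least 1 line, 6 had an unadjusted p under 0.05 in the exact Fisher test (0.459%) and 9 in the exact permutation test (0.689%), and none had one after Benjamini-Hochberg adjustment. The smallest p that 4 lines against 4 can give is 0.0286, and at this p at least 747 of the 1306 genes would have had to separate the groups for an adjusted p under 0.05. A peak in all 4 MNA lines and no single copy line was found at 4 miRNA genes (0.131%), and the reverse at 2 (0.0654%), none of them one of the 9 placed genes.

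The nearest peak to the precursor start was within 10 kb in 40 of 72 combinations (55.6%), the peaks in the windows included, beside 49% over all miRNA genes and 67.3% over those with a CpG-rich window. The median distance ran from 1645 bp at *MIR129-2*, 2137.5 bp at *MIR9-1* and 2282 bp at *MIR9-3*, through 6366.5 bp at *MIR124-3* and 12084.5 bp at *MIR9-2*, to 20253.5 bp at *MIR34A*, 32375 bp at *MIR34C*, 32876 bp at *MIR34B* and 108681 bp at *MIR124-2*. The distances of neighbours in this order overlapped over the lines. Overlapping peaks of different lines were joined into a region, so the lines of a region need not all share a stretch. A region outside the window with a peak in at least 4 lines was present at 5 of 9 genes. These were *MIR124-2*, *MIR124-3*, *MIR9-2*, *MIR9-3* and *MIR129-2*, beside 26.2% of all miRNA genes and 41.8% of the CpG-rich group. At *MIR9-2* the region reached 4 lines only because the IMR-32 and SH-SY5Y peaks met end to end. *MIR34A*, *MIR34B*, *MIR34C* and *MIR9-1* had no such region.

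**Figure D2:**
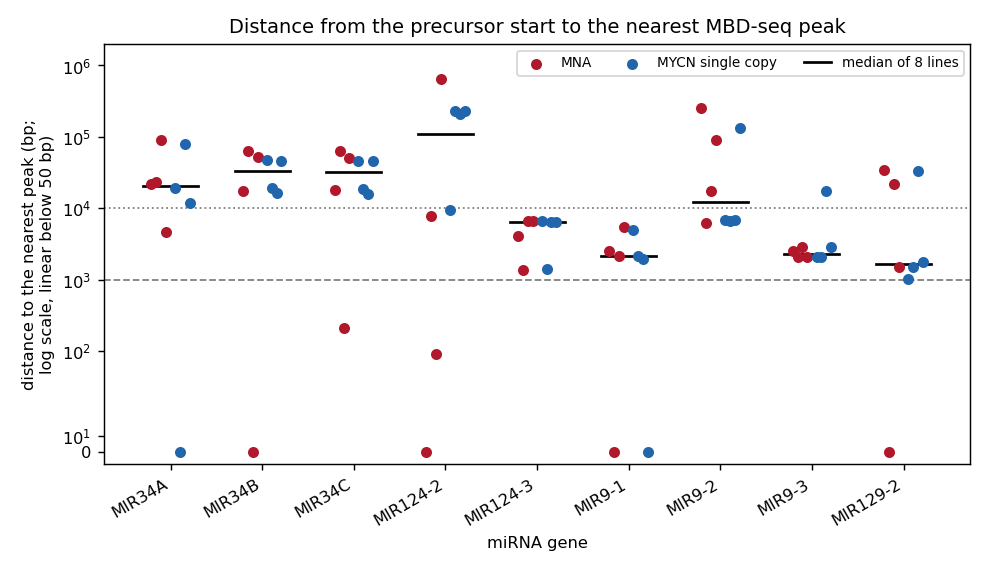
Distance from the precursor start to the nearest MBD-seq peak in each of the 8 lines (points, MNA in red, *MYCN* single copy in blue) and the median over the lines (black bars), in bp on a log scale that is linear below 50 bp. The dashed line marks 1000 bp and the dotted line 10000 bp. The points of *MIR124-3* lie between 1367 and 6638 bp, whereas those of *MIR124-2* run from 0 to 636052 bp.

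**Figure D3:**
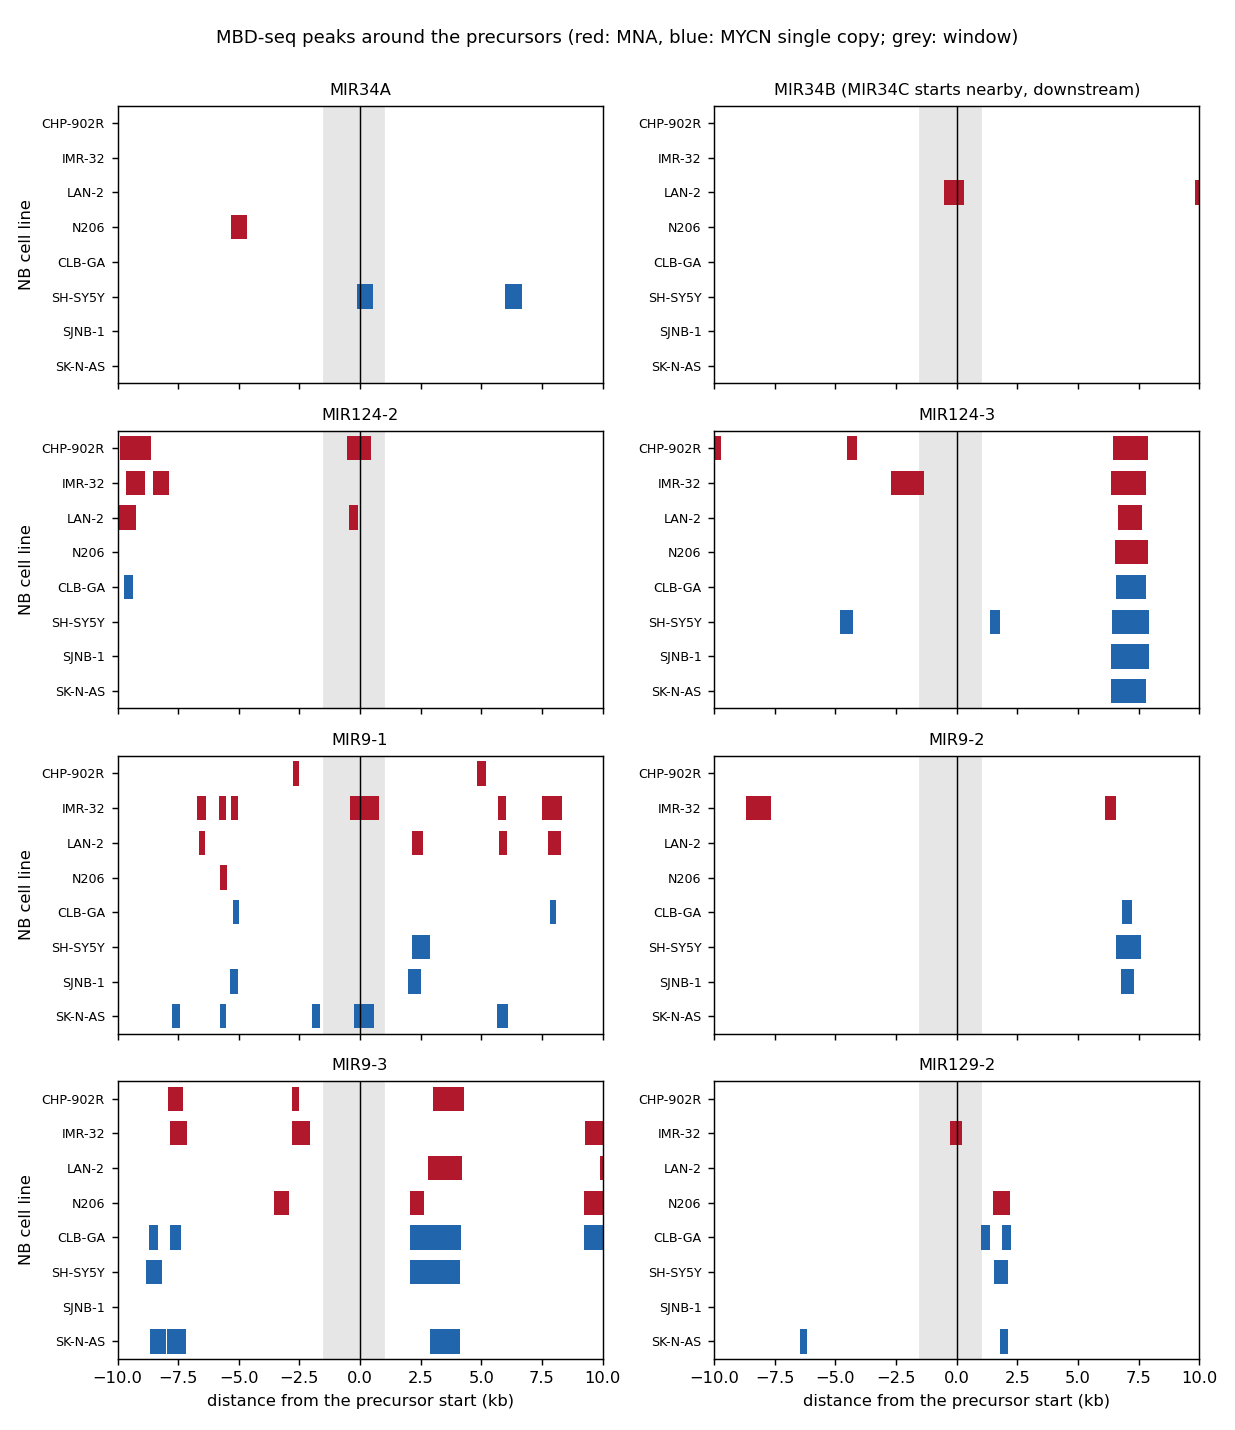
MBD-seq peaks within 10 kb of the precursor start (bars, MNA lines in red and *MYCN* single copy lines in blue), with the distance from the start in kb on the x axis, the lines on the y axis and the precursor window in grey. The region of *MIR124-3* with a peak in all 8 lines and that of *MIR9-3* with a peak in 6 lines lie to the right of the window, and the surroundings of *MIR34A* and *MIR34B* are nearly empty.

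Cover of the window and of its flanks within 10 kb ran in different directions at different genes. At *MIR34B* the peaks covered on average 3.99% of the window and 0.136% of the flanks, and at *MIR34A* 3.36% and 0.944%. At *MIR124-2* the means were 6.76% and 2.74%. At *MIR9-1* the lines differed, with 47.5% of the window and 11.8% of the flanks covered in IMR-32 and 32.7% and 7.63% in SK-N-AS, but 0% of the window and 1.67% to 9.17% of the flanks in the other 6 lines. The order was reversed at *MIR124-3*, with 0.67% of the window and 9.91% of the flanks, and at *MIR9-3*, with 0% and 12.1%. Over the 9 genes together the means were 3.48% and 4.02%, beside 2.87% and 2.38% over all miRNA genes and 6.14% and 4.3% over those with a CpG-rich window.

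Some of the CpG-densest DNA around these genes had peaks and some had none. The densest 250 bp within 10 kb had no peak in any line at *MIR124-3* (40 CpG), *MIR9-2* (33 CpG), *MIR129-2* (31 CpG) and *MIR9-1* (25 CpG). It had a peak in 1 line at *MIR34A* (12 CpG) and at *MIR34B* and *MIR34C* (36 CpG), in 4 lines at *MIR124-2* (34 CpG) and in 5 at *MIR9-3* (38 CpG). Over all miRNA genes the densest 250 bp had a peak in at least 1 line at 44.2%, and such a peak was found at 5 of the 9 genes here. Over the miRNA genes with a CpG-rich window, 83.5% had no peak there in any line.

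**Figure D4:**
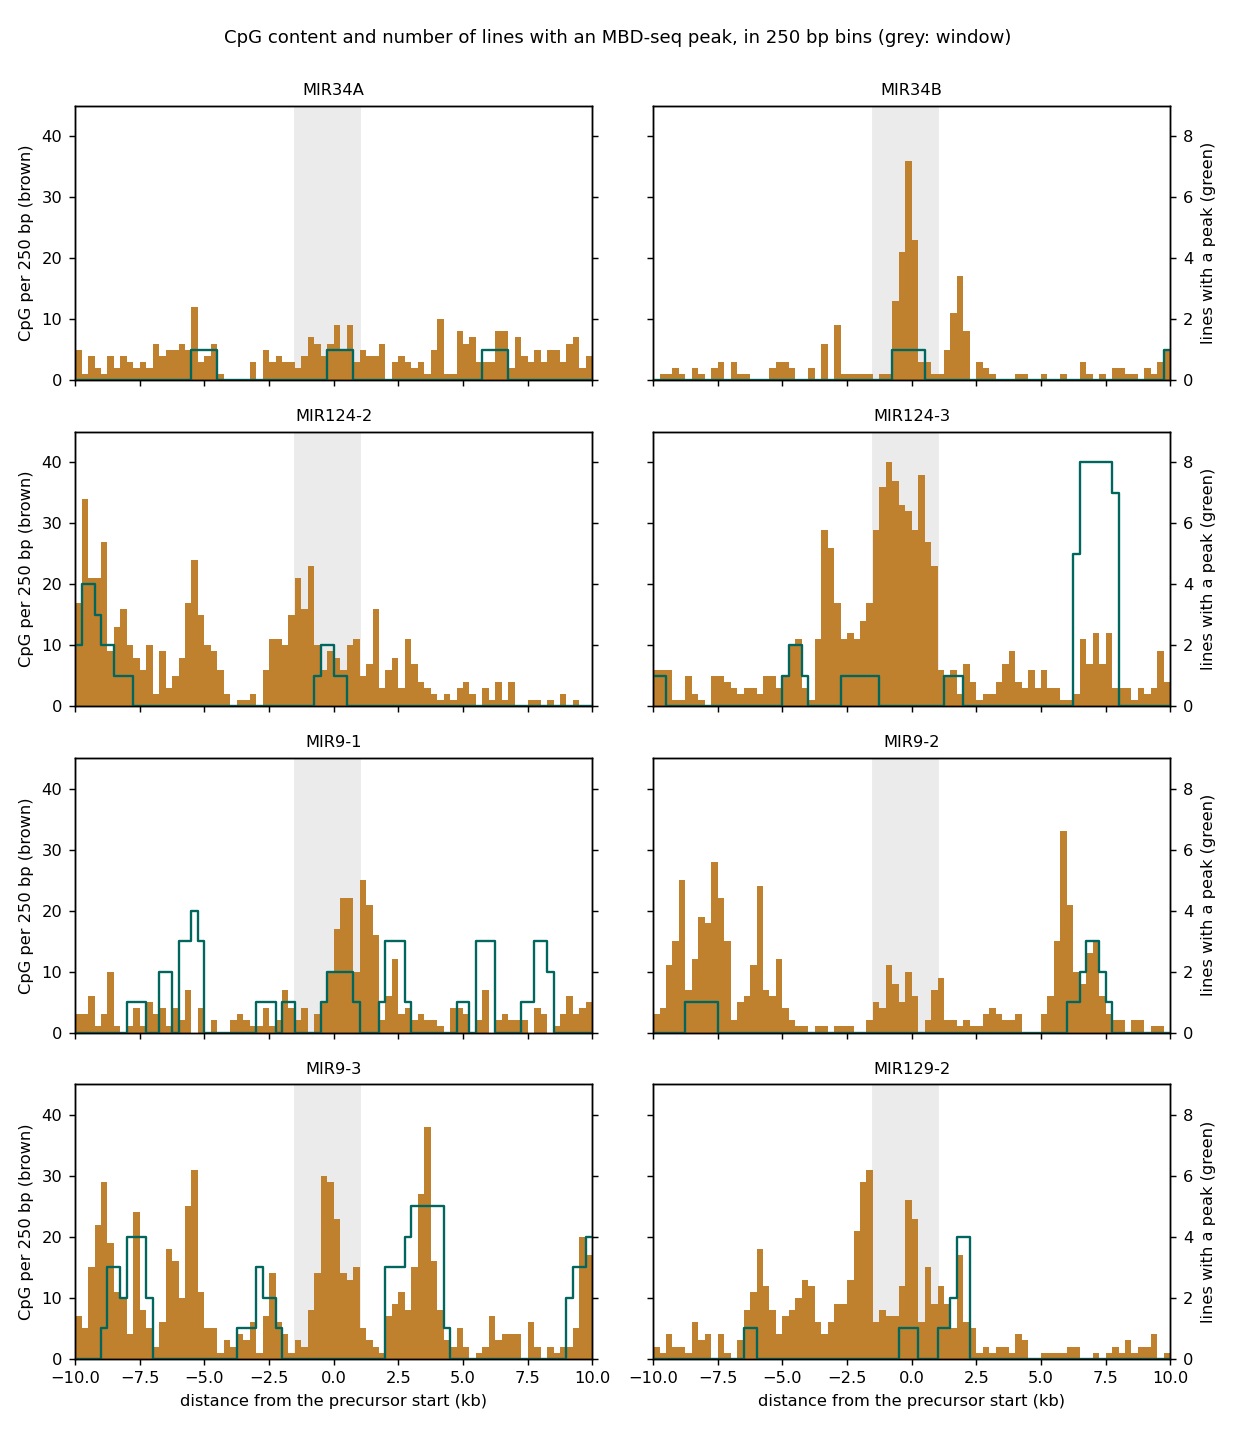
Number of CpG per 250 bp (brown bars, left axis) and number of lines with an MBD-seq peak in the same 250 bp (green line, right axis) against the distance from the precursor start in kb, with the precursor window in grey. The CpG-dense window of *MIR124-3* is almost free of peaks, and its 8 lines meet at a stretch of fewer CpG further downstream.

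Transcription of a precursor can begin far upstream of it, so the same window was also placed at each annotated start site of the host transcript upstream of the precursor. Of the 9 genes, 8 had a host on the strand of the precursor. A peak was then present in 15 of 64 combinations (23.4%), 9 of 32 in MNA lines and 6 of 32 in single copy lines. The share was 27.7% over the 1623 miRNA genes with such a host, and 21.4% over those of them with a CpG-rich window. The hosts of *MIR9-1*, *MIR9-2* and *MIR9-3* had 21, 29 and 8 such start sites, beside 1 to 7 for the other genes, and so had more chances of a peak. *MIR9-1* had a peak in 2 MNA lines (IMR-32 and LAN-2) and 3 single copy lines (all but CLB-GA) at start sites 1314 to 1373 bp from the precursor, with the precursor peaks of IMR-32 and SK-N-AS among them. *MIR9-3* had one in 4 lines, CHP-902R, IMR-32, CLB-GA and SK-N-AS, at the start site farthest upstream (6438 bp), and none at the 7 others. *MIR9-2* had one in IMR-32 and LAN-2 at start sites of *LINC00461*.

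At the hosts of the other genes the lines with a peak were few. *MIR34AHG* had a peak in CHP-902R in place of SH-SY5Y, at a start site 30615 bp from the precursor, and the start site of *MIR34BHG*, 2338 bp upstream of *MIR34B*, had none. *MIR124-2HG* had a peak in CHP-902R and LAN-2, the same lines as at the precursor, at a start site 1189 bp upstream whose window overlaps that of the precursor. The hosts of *MIR129-2* had one in SK-N-AS, 4806 bp upstream of the precursor, in place of IMR-32. *MIR124-2* and *MIR9-2*, each with 2 MNA lines against no single copy line, had an unadjusted p of 0.429 in the exact Fisher test, and the other genes had a p of 1.

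**Figure D5:**
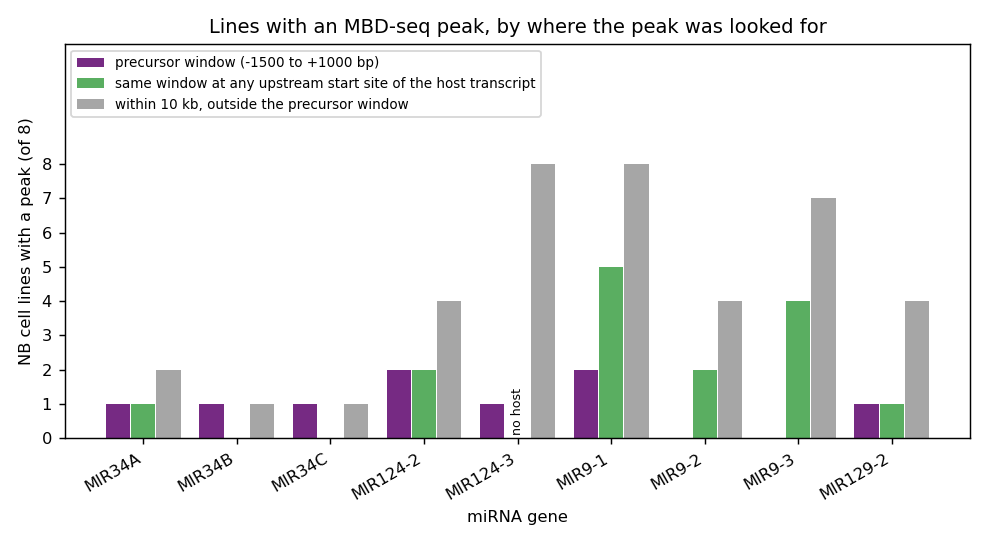
Number of NB cell lines, of 8, with an MBD-seq peak in the precursor window (purple), in the same window at an upstream start site of the host transcript (green) and within 10 kb but outside the precursor window (grey). The purple bars reach at most 2 lines, and the grey bars reach 8 at *MIR124-3* and *MIR9-1*.

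Among neighbouring genes, the start sites of *BTG4*, the nearest of them 552 bp from *MIR34B*, had a peak in LAN-2 only. The window of that nearest site overlaps the LAN-2 peak of *MIR34B*, so the same peak is counted again here. The nearest protein-coding genes of the other precursors were 22675 to 201216 bp away and had peaks in other sets of lines. *GPR157*, near *MIR34A*, had a peak in CHP-902R, IMR-32 and SH-SY5Y, *MEF2C*, near *MIR9-2*, in LAN-2, and *BHLHE22*, near *MIR124-2*, in none. *YTHDF1*, near *MIR124-3*, had one in N206 and SK-N-AS. *RHBG*, near *MIR9-1*, had one in 7 lines, *POLG*, near *MIR9-3*, in 6 and *TTC17*, near *MIR129-2*, in 5.

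The miRNA genes most like *MIR124-2* and *MIR9-1* were found by the summed difference in covered length over the 8 lines, among genes more than 1 Mb away. For *MIR124-2* these were AL592063.1 (387 bp in all), which also had a peak in CHP-902R and LAN-2, *MIR329-1* (423 bp) and *MIR1197* (445 bp), each with a peak in CHP-902R only. For *MIR9-1* these were *MIR4721* (372 bp), with a peak in IMR-32, SK-N-AS and SJNB-1, and *MIR3147* (475 bp) and AC003006.1 (645 bp), with a peak in IMR-32 and SK-N-AS.

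Another 40 miRNA genes described with CpG island methylation in tumors were read in the same way, and 37 could be placed. Of these, 29 had a peak in at least 1 line (78.4%, beside 77.8% of the 9 genes above) and 18 in at least 2 (48.6%, beside 2 of the 9). Over all miRNA genes 42.7% had a peak in at least 1 line and 25.6% in at least 2. In the group with a CpG-rich window these shares were 56.5% and 35.3%. The median was 1 line in both sets and in the CpG-rich group, and 0 over all miRNA genes. A peak in 7 lines was found at 4 of the 37, *MIR193A*, *MIR127*, which lies in an imprinted cluster, *MIR375* and *MIR671*, beside 1.01% of all miRNA genes with a peak in 7 or 8. *MIR671* was named after its values were seen. *MIR218-1*, inside the gene *SLIT2*, separated the groups, with 413 bp covered in N206, 365 bp in LAN-2, 509 bp in IMR-32 and 330 bp in CHP-902R and 0 bp in the 4 single copy lines (exact Fisher test, unadjusted p = 0.0286, adjusted p = 1 over 1306 genes). *MIR129-1*, the other gene of miR-129-5p and named here outside the rule for named genes, had a peak in CHP-902R and SH-SY5Y, whereas *MIR129-2* had its peak in IMR-32.

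Genes that make or use miRNAs had promoter peaks in from 1 line to all 8. Each protein-coding gene was read through the same window at any of its start sites, so genes with many start sites have more chances of a peak. All 17 genes of miRNA processing had a peak in at least 1 line, beside 73.9% of protein-coding genes, 15 of them in 2 or more, beside 60.9%, and the median was 5 lines beside 2. *DROSHA*, which cuts the precursor from the primary transcript, *AGO1*, an Argonaute protein, and *TNRC6C*, a partner of the Argonaute proteins, had one in all 8 lines, beside 6.11% of protein-coding genes. *DGCR8*, the partner of *DROSHA*, had one in 7 lines, and 7 of the 17 genes had one in at least 7, beside 13.4%.

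Of the known targets, 11 of 16 for miR-34, 9 of 10 for miR-124, 7 of 9 for miR-9 and 3 of 3 for miR-129 had a promoter peak in at least 1 line. The share over all protein-coding genes was 73.9%, and the lists are short. The medians were 2, 5, 1 and 1 lines beside 2 over all protein-coding genes. *BCL2*, an inhibitor of apoptosis and target of miR-34, had a peak in 7 lines, all but CLB-GA. *CAMTA1*, a transcription factor and target of miR-129, had one in the same 7 lines. A peak in at least 7 lines was found at 13.4% of protein-coding genes. No target separated the groups, beside 0.302% of all protein-coding genes.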

How the data were processed

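Genomic DNA of 8 NB cell lines, of which the labels give 4 as *MYCN* amplified, was captured by MBD2 and sequenced as paired ends, 1 sample per line. The authors mapped the reads with Bowtie 0.12.7 on GRCh37 and called peaks in each line with MACS, whose options and control are not given in the sources used here. The deposited lists give the position and a score of each peak, where the score grows with the negative log10 of the p-value. The percentile of a score was taken within its own list, and a common minimum score was applied to all lists as an alternative.

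Windows from -1500 to +1000 bp were placed at the precursor starts of 3049 miRNA genes of GENCODE release 44 on GRCh37 and of 10 further genes (*MIR9-2* and 9 listed genes) found by an exact match of their RefSeq hairpin. Peaks were counted at an overlap of 1 bp in Python 3.11.15 (numpy 2.4.6, scipy 1.17.1), sequences read with pysam 0.24.0, uniqueness of 45 bp stretches computed with numba 0.67.0 and figures drawn with matplotlib. Groups were compared per gene by two-sided exact Fisher tests of presence and two-sided exact permutation tests of covered length, with Benjamini-Hochberg adjustment over all miRNA genes with a peak. Both were also run on simulated data with planted genes that separated the groups completely. Such genes give the smallest p by design, so this checked the code only. Alternatives were a score of at least 100, equal list lengths, peak midpoints, windows to +500 and from -5000 bp, host start sites, and each line left out.

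The genes, lists and tests were chosen with earlier results of these data known. The rule for named genes took the 10 genes, their hosts and nearest protein-coding genes, at most 4 genes of a list with a peak in 7 or 8 lines or separating the groups, and the 3 miRNA genes nearest in covered length. The regions within 10 kb, the CpG-densest 250 bp, the hairpin strand of *MIR9-1* and the genes placed by hairpin were added after the data had been seen. Expression and methylation-specific PCR data were not analysed here.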

Additional observations from a re-analysis of the deposited data

Results flagged for a closer look

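Of 38 groups of 4 lines in which values differed, 13 had a line far from the other 3 by Dixon's ratio of gap to range. Chance marks about 1 group in 20 only where values are normally distributed. That was not checked for the covered lengths and distances here, so the flags cannot be set against this rate. A group with 3 lines at 0 and 1 above it always passes, so 7 of these flags only restate a peak in 1 line. They were the covered lengths of 674 bp at *MIR34A* in SH-SY5Y, 798 bp at *MIR34B* and 798 bp at *MIR34C* in LAN-2, 134 bp at *MIR124-3*, 1189 bp at *MIR9-1* and 497 bp at *MIR129-2* in IMR-32, and 818 bp at *MIR9-1* in SK-N-AS.

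The other 6 were distances to the nearest peak. *MIR124-2* had its nearest peak 636052 bp away in N206 among MNA lines and 9370 bp away in CLB-GA among single copy lines. *MIR124-3* had it 1384 bp away in SH-SY5Y, nearer than in the other single copy lines. The remaining distances were longer than in the other single copy lines, 134504 bp at *MIR9-2* in SK-N-AS, 17517 bp at *MIR9-3* in SJNB-1 and 33615 bp at *MIR129-2* in SJNB-1.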

How the results depend on the processing

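No paired analysis was possible because the lines of the groups share no culture or batch by the labels, and a shared replicate number was given only in accession order. The number of miRNA genes with an adjusted p under 0.05 was 0 in both tests under all alternatives.

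Counting only scores from 100 upward, the genes described here had a peak in 3 combinations in MNA lines (main value 7) and 0 in single copy lines (2), with 3 genes in at least 1 line (7) and 0 in at least 2 (2). The background share fell to 2.21%, and to 5.81% for CpG-rich windows, and no miRNA gene separated the groups (0 and 0) or had an unadjusted p under 0.05 (0 in both tests). Only the peaks at *MIR34B* with *MIR34C* and of CHP-902R at *MIR124-2* remained. With lists of equal length, 1 gene had a peak in at least 2 lines and 1 miRNA gene separated the single copy lines. With peak midpoints, 3 miRNA genes had an unadjusted p under 0.05 in the Fisher test, and 2 and 1 separated MNA and single copy lines. With the window to +500 bp, 5 had an unadjusted p under 0.05 in the permutation test and 1 separated single copy lines.

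With the window from -5000 bp, MNA lines had 13 combinations and single copy lines 3, and 5 genes had a peak in at least 2 lines. The background shares were 23.1% and 37.4%, the unadjusted counts 12 and 23, and the separating genes 8 and 4. At host start sites, single copy lines had 6 combinations and 4 genes had a peak in at least 2 lines. The background shares were 27.7% and 21.4%, the unadjusted counts 2 and 5, and 2 and 0 miRNA genes separated the groups.

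Leaving out 1 line at a time, the combinations ranged from 4 to 7 in MNA and 1 to 2 in single copy lines, with 4 in MNA lines without IMR-32 or without LAN-2 and 1 in single copy lines without SH-SY5Y or without SK-N-AS. From 5 to 7 genes had a peak in at least 1 line and 1 to 2 in at least 2, with 1 without CHP-902R, IMR-32, LAN-2 or SK-N-AS. The unadjusted counts ranged from 10 to 15 and 10 to 16, the background shares from 12.3% to 12.9% and 18.7% to 19.8%, and the separating genes from 4 to 11 and 2 to 7. Placing *MIR9-1* on the strand of its hairpin, chosen after seeing the data, changed none of these 12 values. By definition, leaving out a line removes its own combinations, and fewer lines must then match for a gene to separate the groups. The cause of the other changes was not tested. Since the depth is unknown, a missing peak does not show that a window was unmethylated.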
